A study of Rattus norvegicus with 24 samples.

Results

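The genes described here are 275 of the 32883 gene IDs counted in rat left ventricle whose level was high in infarcted hearts that carried a patch and lower both in infarcted hearts without one and in sham-operated hearts. They were chosen from the measured values by a fixed rule. In each library the count of a gene was divided by the library total and scaled to counts per 1e6 (CPM), and the 6 libraries of a group were averaged. A gene was taken where the means of the Sutured patch and Microneedle patch groups were each at least 1 CPM, at least 2 times the MI mean and at least 2 times the Sham mean, outside the 100 genes with the highest MI mean. The last condition removed 0 genes. Of the 13316 genes that reached 1 CPM in both patch groups, the 275 are 2.07%.

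The 24 libraries came from left ventricles of Sprague Dawley rats at day 7, in 4 groups of 6. Sham is the operated control, MI is myocardial infarction with no patch, Sutured patch is an infarct covered by a patch stitched in place, and Microneedle patch is an infarct covered by a patch that anchors itself with microneedles. All groups share strain, tissue and time. The labels name the infarct region as the tissue taken and do not state what was sampled in Sham, what the patches were made of, the age or sex of the rats, or that each library is a separate rat, so every spread given here is between libraries and may be in part technical.

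An infarct in its first weeks is filled by granulation tissue, in which monocytes and macrophages clear dead muscle, fibroblasts lay down matrix and new vessels grow. Material placed on or into a tissue is met by a foreign-body reaction, in which macrophages gather on the surface, can fuse into giant cells, and are joined by fibroblasts that wall the material off. Which of these processes any of the 275 genes belongs to cannot be read here, because the table gives Ensembl IDs with no symbols and the RefSeq table at hand matched 0 of the 32883 IDs. For the same reason the ventricle's own markers, the markers of other cell types and the promoter sequences could not be looked up, and 0 of 39 gene lists were run. In a piece of tissue, more cells of a type and more RNA per cell cannot be told apart.

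The infarct libraries held 12574300 to 14552623 counts each and the Sham libraries 5443782 to 11757562. Sham replicates 4 and 5 stood apart: 48.4% and 45.5% of the 275 genes had at least 1 count there, against 72.7% to 79.3% in the other Sham libraries, 92.0% to 97.5% in MI and 98.5% to 99.6% with a patch. Sham replicate 5 was the library with 5443782 counts, whereas Sham replicate 4 held 10753596 and Sham replicate 3 held 8303319. Why fewer genes were found in Sham replicates 4 and 5 was not tested. A limit of 3 counts is 0.255 to 0.551 CPM in a Sham library and 0.206 to 0.239 CPM in any other library, which covers counting error only. Without Sham replicates 4 and 5 the rule gave 271 genes, 266 of them among the 275.

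Together the 275 genes were a small part of the RNA in every group. Their share of all reads counted was 0.110% ± 0.0177 for Sham and 0.332% ± 0.0825 for MI (SD, n = 6 each). Under the sutured patch it reached 1.11% ± 0.266, and under the microneedle patch 1.02% ± 0.206 (SD, n = 6 each). The summed level ran from 785 to 1320 CPM in the Sham libraries and from 2190 to 4558 CPM in the MI libraries. With the sutured patch it ran from 7207 to 15332 CPM and with the microneedle patch from 7825 to 13634 CPM. The rule fixes that order of the groups, so these values describe the genes and test nothing. The summed MI level was above every Sham library in 6 of 6 libraries, an order that the rule does not state but favours, as set out with the comparison of MI and Sham.

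**Figure D1:**
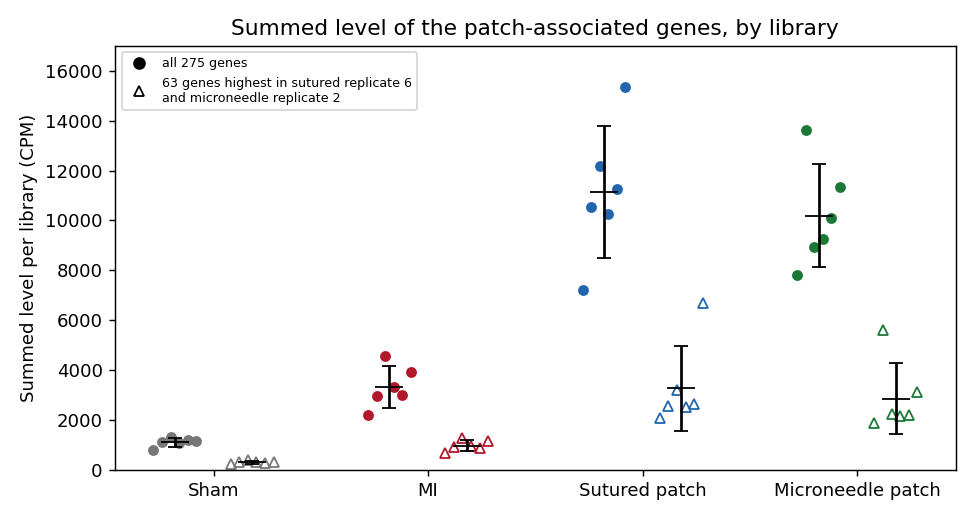
Each point is 1 library; the vertical axis is the summed level in CPM, the circles are all 275 genes, the triangles are the 63 genes highest in sutured patch replicate 6 and microneedle patch replicate 2, and the bars are the mean ± SD of 6 libraries. The lowest patch library lies at 7207 CPM and the highest MI library at 4558 CPM, and a single triangle in each patch group stands well above the rest.

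Most of the genes were weakly counted. The lower of the patch means was 1 to 10 CPM for 164 genes, 10 to 100 CPM for 91 and at least 100 CPM for 20. The median gene had a mean of 0.554 CPM in Sham and 1.73 CPM in MI, and of 8.10 CPM under the sutured and 6.35 CPM under the microneedle patch. CPM is not corrected for gene length, so these classes rank counts and not transcript numbers. The lower patch mean was a median of 2.76 times the higher of the MI and Sham means, with the middle 50% of genes between 2.27 and 4.13 times; a mean under 3 counts over its group was set to that floor. The ratio was under 2.5 for 111 genes, at least 4 for 71 and at least 10 for 18.

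At the edge of the rule the ratios on either side were nearly the same, at different levels. The gene just inside had means of 11.04 (Sham), 11.3 (MI), 41.5 (sutured patch) and 22.6 CPM (microneedle patch), a ratio of 2.0004. The gene just outside had means of 1.23 (Sham), 1.10 (MI), 2.88 (sutured patch) and 2.46 CPM (microneedle patch), a ratio of 1.997. The number of genes follows the cutoff, with 638 at 1.5 times and 120 at 3 times.

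The gene with the highest patch level was ENSRNOG00000002548. It had 4 counts in all over the 6 Sham libraries. In MI replicates 1 to 6 it stood at 40.3, 255, 671, 617, 113 and 484 CPM. With the sutured patch it stood at 982, 387, 884, 832, 731 and 1312 CPM. With the microneedle patch it stood at 531, 928, 964, 1498, 816 and 906 CPM. MI libraries thus differed among themselves over a wider fold range than the patch libraries, and MI replicates 3 and 4 were above sutured patch replicate 2 and microneedle patch replicate 1; MI replicate 6 was above sutured patch replicate 2 too. This gene is therefore not confined to hearts with a patch: in edgeR's quasi-likelihood test, fitted over all genes with Benjamini-Hochberg adjustment, its log2 fold change between MI and Sham was 12.15 (SE 0.82, adjusted p = 5.03e-11, higher in 6 of 6 libraries). Its patch levels did not pass a test against each other (log2 fold change microneedle against sutured 0.22, SE 0.44, adjusted p = 0.881).

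The next gene by patch level, ENSRNOG00000014117, was more even. It ran from 6.80 to 25.6 CPM in the Sham libraries. In MI replicates 1 to 6 it stood at 81.4, 120, 209, 119, 229 and 192 CPM. With the sutured patch the values were 519.9, 721, 1251, 546, 676 and 854 CPM, and with the microneedle patch 772, 914, 900.1, 1060, 1327 and 929 CPM. No group overlapped another except the patches with each other, so that the lowest patch library was more than 2 times the highest MI library. The lower patch mean was 4.81 times the MI mean. The gene rose in MI against Sham (log2 fold change 3.04, SE 0.30, edgeR adjusted p = 1.52e-08), and the log2 difference of 0.44 between the patches (SE 0.27, adjusted p = 0.503) did not pass.

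How evenly the genes were raised across the patch libraries varied widely. In 79 of 275 genes (28.7%) each of the 12 patch libraries was above each of the 12 MI and Sham libraries. Among all genes with both patch means at least 1 CPM this held for 1.39%, and the rule favours such genes, so nothing is read from the difference. The share was 19.5% of the genes at 1 to 10 CPM, 41.8% at 10 to 100 CPM and 45.0% at 100 CPM or more. In 147 genes at least 10 of the 12 patch libraries were above every library without a patch, in 94 genes 6 to 9 were, and in 34 genes 5 or fewer were. Without Sham replicates 4 and 5, 87 genes had no overlap. For the shares by level and the counts after them, no share over all genes was computed. They describe the 275 genes, and nothing is read from them.

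**Figure D2:**
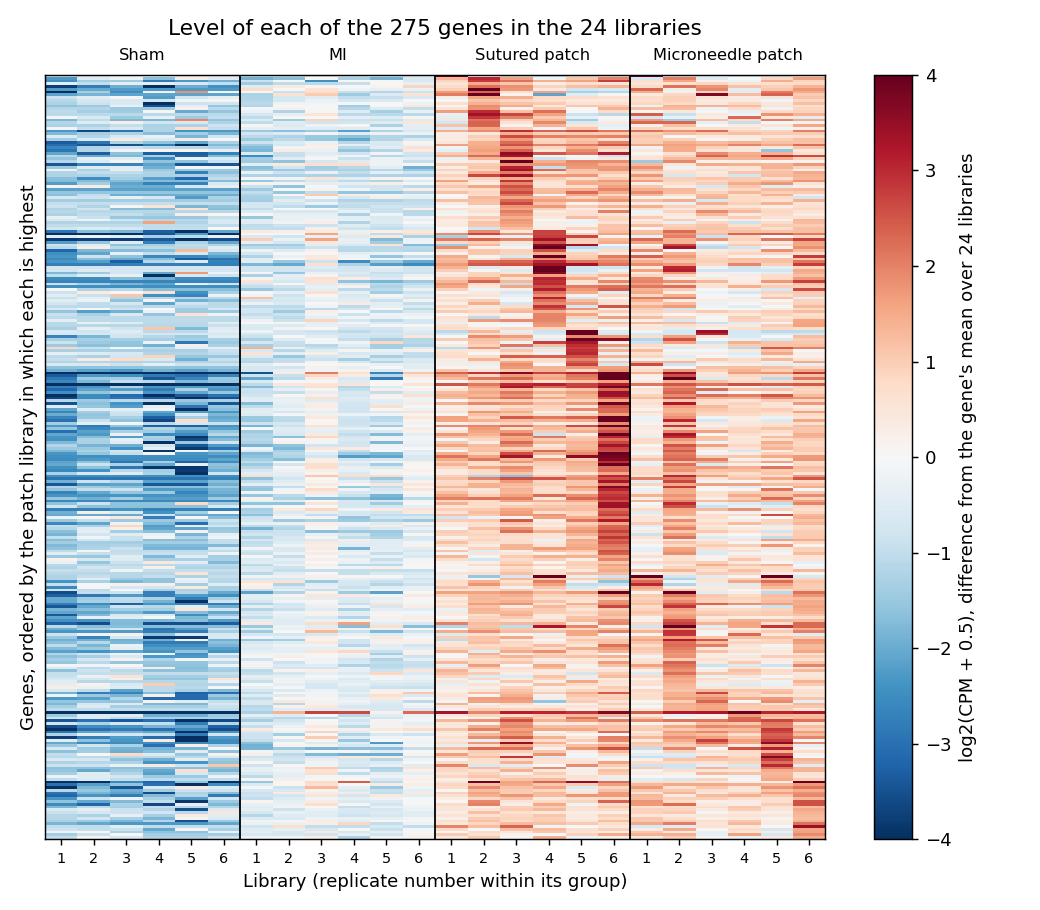
Rows are the 275 genes, ordered by the patch library in which each is highest; columns are the 24 libraries by group and replicate; colour is log2(CPM + 0.5) minus the gene's mean over the libraries, with the scale ending at 4 either way. Sham columns are the lowest, MI columns lie between, and blocks of genes stand out in sutured patch replicate 6 together with microneedle patch replicate 2.

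In a number of genes 1 library held most of a patch group's level. A single library held over 50% of the sutured patch sum in 38 genes (13.8%) and of the microneedle patch sum in 31 (11.3%), 47 genes in all, 22 of them in both groups. Among all genes with both patch means at least 1 CPM the shares were 0.826% and 0.668%; a high single library also lifts a mean over the rule's threshold, so nothing is read from the difference. Of the 47 genes, 29 no longer met the rule without a library that held over 50%, and 18 still met it. Of all 275 genes, 160 met the rule whichever 1 patch library was left out and 115 did not. The libraries were sutured patch replicate 6 for 14 of the 38 genes and microneedle patch replicate 2 for 18 of the 31. With group medians in place of means 221 genes were found, and 190 of the 275 were among them.

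Sutured patch replicate 6 was the highest library of its group in 104 genes (37.8%, against 18.3% of all genes with both patch means at least 1 CPM). Microneedle patch replicate 2 was the highest of its group in 112 (40.7%, against 23.1%). In 63 genes (22.9%) both were the highest library of their group, against 5.86% of all genes with both patch means at least 1 CPM. A high single library also lifts a patch mean over the rule's threshold, so nothing is read from these differences to all genes. Whether 63 is more than the counts of 104 and 112 would give was not tested. The set was defined by these libraries, so their levels in it are a description. Its summed level was 6676 CPM in sutured patch replicate 6 and 2073 to 3208 CPM in the other sutured patch libraries. It was 5593 CPM in microneedle patch replicate 2 and 1866 to 3119 CPM in the others of that group.

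The pattern was steepest in 9 genes in which these libraries each held over 50% of their group's sum. The one of them with the highest patch level stood at 782 CPM in sutured patch replicate 6 and 97.1 to 131 CPM in the other sutured patch libraries. In microneedle patch replicate 2 it stood at 874 CPM, in replicate 6 at 178 CPM and in the other 4 at 18.2 to 46.5 CPM. The MI libraries were at 8.27 to 42.6 CPM and the Sham libraries at 2.78 to 21.6 CPM. The other sutured patch libraries were thus above every MI library, whereas 2 microneedle patch libraries lay within the MI range and replicates 1 and 4 were just above it.

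A different set of values came from sutured patch replicate 5. In 2 genes this library held over 90% of the CPM summed over all 24 libraries. The first had 1117 CPM there (14040 counts), 10.5 CPM in microneedle patch replicate 3 (149 counts), 2.07 CPM in sutured patch replicate 2 and at most 0.432 CPM in any other library. The second had 795 CPM there (9998 counts), 6.36 CPM in microneedle patch replicate 3 (90 counts), 11 counts in each of sutured patch replicates 2 and 3, and 0 counts in the other 20 libraries. The level in sutured patch replicate 5 was 106 and 125 times that in microneedle patch replicate 3. Both genes meet the rule through these libraries alone and say nothing of the other hearts with a patch. Among all 32883 genes, 19 had at least 5 CPM and over 90% of their sum in sutured patch replicate 5, against 0 or 1 in any other library.

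By summed level, replicate 1 had the least of the 275 genes in each of the 4 groups, with or without a patch. It stood at 785 CPM in Sham, 2190 CPM in MI, 7207 CPM with the sutured and 7825 CPM with the microneedle patch. By the median over the genes, Sham replicates 4 and 5 were lower than Sham replicate 1. Same-numbered libraries were correlated over all genes tested, as given at the end. Those values do not decide whether the replicate number marks something shared. On median over the 275 genes, sutured patch replicate 1 reached 0.656 times the mean of the 12 patch libraries and microneedle patch replicate 1 reached 0.709 times, against 1.21 times in sutured patch replicate 6 and 1.10 times in microneedle patch replicate 2. The MI libraries lay between 0.196 and 0.379 times. MI replicate 3 was the highest MI library in 115 genes (41.8%), against 18.6% of all genes with both patch means at least 1 CPM.

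The same libraries differed in a readout the rule did not use, the share of counts held by genes that edgeR called lower in MI than in Sham, the 275 left out. That share was 47.3% to 49.8% in Sham, 16.95% to 25.1% in MI, 17.7% to 22.2% under the sutured and 15.7% to 19.0% under the microneedle patch. The genes it counts were called on these same MI and Sham libraries. The distance between Sham and MI is thus fixed by their choice and tests nothing. In MI the library with the lowest summed level of the 275 genes, replicate 1, had the highest share, and replicate 3, with the highest summed level, had the lowest. With the sutured patch the lowest share, 17.7%, was that of replicate 6, which had the highest summed level. With the microneedle patch the highest share and the highest summed level were both those of replicate 2. The part of this share in the levels of the 275 genes was not tested.

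Whether the genes stay high in a library that had no part in choosing them was described by leaving out each patch library in turn, choosing the genes anew from the other 23, and reading them in the library left out. The MI and Sham libraries still took part in the choice. The 12 choices held 239 to 290 genes. In the library left out, their level was a median of 2.04 to 3.86 times the higher of the MI and Sham means, with a median over the libraries of 2.74. The share of genes at 2 times or more ranged from 50.9% in sutured patch replicate 1 to 81.6% in microneedle patch replicate 6. Among all genes with both patch means at least 1 CPM it was 1.80% to 5.79%. The chosen genes were picked as low in the MI and Sham libraries they are read against, and as high in the other patch libraries. The difference is thus in part set by the choice, and nothing is read from it. Between 4.58% and 12.6% of the chosen genes were below the higher of the MI and Sham means in the library left out.

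**Figure D3:**
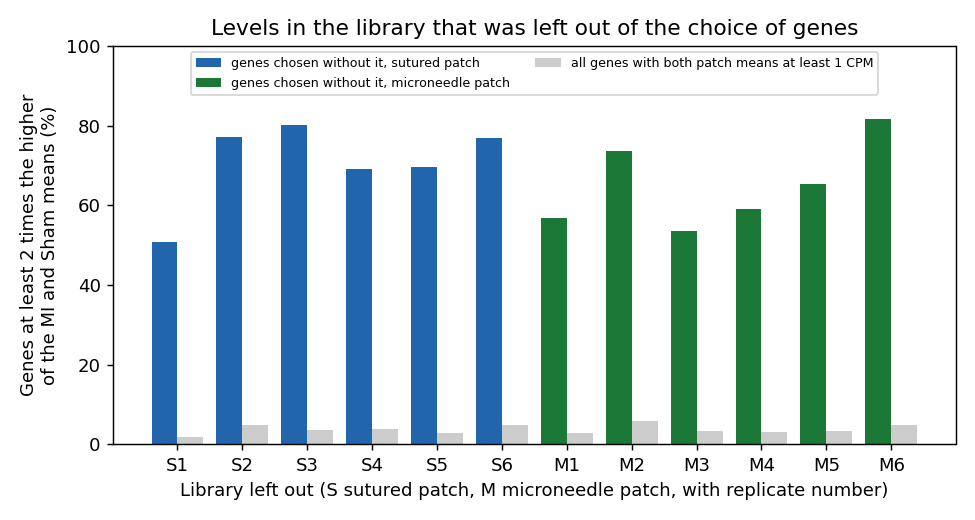
For each patch library (S sutured, M microneedle, with replicate number) the coloured bar is the percentage of genes chosen without it that reached at least 2 times the higher of the MI and Sham means in it, and the grey bar is the same for all genes with both patch means at least 1 CPM. Coloured bars run from 50.9% to 81.6% and grey bars from 1.80% to 5.79%. The distance between them is in part set by the choice of genes.

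The comparison of MI with Sham describes these genes in infarcts without a patch. The labels do not state what was sampled in Sham, so the infarct and the region sampled cannot be told apart. The rule is not neutral here, because both patch groups were infarcted too. Asking them for at least 2 times the Sham mean favours genes that an infarct raises and disfavours genes that it lowers. The counts below therefore describe the genes, and nothing is read from their distance to all genes. The MI mean was above the Sham mean in 234 genes, below it in 39 and equal in 2, and it was more than 2 times the Sham mean in 169. Of the genes, 267 had enough counts in enough libraries to test. Among these, 128 (47.9%) were higher in MI, against 21.6% of the 14540 genes tested, and 1 (0.375%) was lower, against 23.2%. The median log2 fold change was 1.35 among the 267 genes and -0.042 among all genes tested. The other 138 did not pass, which does not show that their levels were alike. All 6 MI libraries were above all 6 Sham libraries in 81 genes (29.5%), against 16.9% of all genes with both patch means at least 1 CPM.

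At the far end, 45 genes (16.4%) had at most 3 counts over the 6 Sham libraries, against 0.563% of all genes with both patch means at least 1 CPM; the rule asks for low Sham levels, so nothing is read from the difference. Of these, 5 also had at most 3 counts over the 6 MI libraries. The medians of the 45 were 0.372 (MI), 4.26 (sutured patch) and 2.07 CPM (microneedle patch). In 14 of them a single library held over 50% of a patch group's sum. Over the 6 Sham libraries together 3 counts are 0.0522 CPM, and in a single Sham library they are up to 0.551 CPM. An absence from Sham is a statement down to these limits only.

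**Figure D4:**
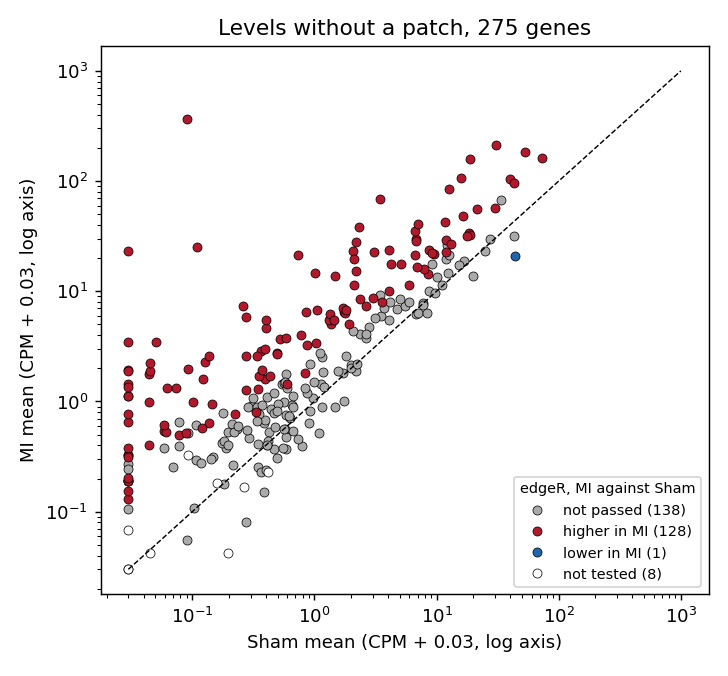
Each point is 1 of the 275 genes by its Sham mean and MI mean (CPM + 0.03, both axes logarithmic; the dashed line marks equal levels), coloured by edgeR's test of MI against Sham. The 128 genes higher in MI lie above the line, the 1 gene lower in MI lies below it at a Sham mean of 44.0 CPM, and 138 did not pass.

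With all 24 libraries, the 1 gene that fell in MI was ENSRNOG00000013484. The count of genes lower in MI was 2 without Sham replicate 4, 3 without Sham replicate 5, 2 without Sham replicate 6, 3 without Sham replicates 4 and 5, and 2 with DESeq2. No share over all genes was computed for these settings, so nothing is read from their counts. The Sham libraries of ENSRNOG00000013484 stood at 19.7, 35.1, 65.5, 33.5, 62.3 and 47.8 CPM, and its MI libraries at 17.8, 23.7, 17.5, 11.8, 22.2 and 33.1 CPM. The groups overlapped, since 3 of 6 MI libraries were below every Sham library. The log2 fold change of MI against Sham was -1.09 (SE 0.28, edgeR adjusted p = 0.00307). With the sutured patch it stood at 62.6, 93.6, 167, 93.5, 110.5 and 81.0 CPM, and with the microneedle patch at 98.7, 100.2, 54.3, 60.3, 98.5 and 118.5 CPM. All 12 patch libraries were above all 6 MI libraries, and its ratio to the higher mean without a patch, here Sham, was 2.01.

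The 4 comparisons of a patch with MI or Sham are the ones the rule used, so their calls describe the genes and support nothing. Of the 267 genes tested, edgeR called 154 higher with the sutured patch than in MI, against 2.87% of all genes tested, and 176 higher with the microneedle patch than in MI, against 7.12%. Against Sham it called 253 with the sutured patch, against 24.1%, and 249 with the microneedle patch, against 25.9%. The count of 154 was 98 without MI replicate 1, 99 without MI replicate 5 and 99 without sutured patch replicate 6. The count of 176 was 115 without MI replicate 1. Without Sham replicates 4 and 5 the counts against MI were 215 and 219. No share over all genes was computed for the fits with libraries left out, so these counts cannot be set against 2.87% and 7.12%. Thus a 2-fold difference of means left many single genes without a call against MI. The 8 genes not tested did not pass edgeR's filter, which asks for enough counts in enough libraries. They include the 2 genes found nearly in sutured patch replicate 5 alone, so not all of them were weakly counted.

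The microneedle and the sutured patch were also compared with each other. The labels do not state what the patches were made of. The way a patch is held and its material therefore cannot be told apart here. The rule leaves out genes that reached 2 times the controls with 1 patch only, so large differences between the patches are selected against and the shares below are in part set by the choice of genes. None of the 267 genes passed edgeR's test, against 0.316% of all genes tested. At an unadjusted p below 0.05 there were 19 genes, 3 higher and 16 lower with the microneedle patch (7.12%, against 13.7% of all genes tested). DESeq2 called 3, all lower with the microneedle patch. Its share over all genes was not computed, so nothing is read from that count. The sutured patch mean was the higher in 185 genes and the microneedle patch mean in 90. It was over 2 times the other in 34 genes for the sutured patch and in 5 for the microneedle patch. The median log2 fold change was -0.073 among the 267 genes and -0.0098 among all genes tested. The middle 90% of the 267 lay between -1.20 and 0.66. The 95% interval of the difference lay inside 2-fold either way in 57 genes and reached beyond it in 210, so for those 210 the data do not bound the difference to 2-fold.

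**Figure D5:**
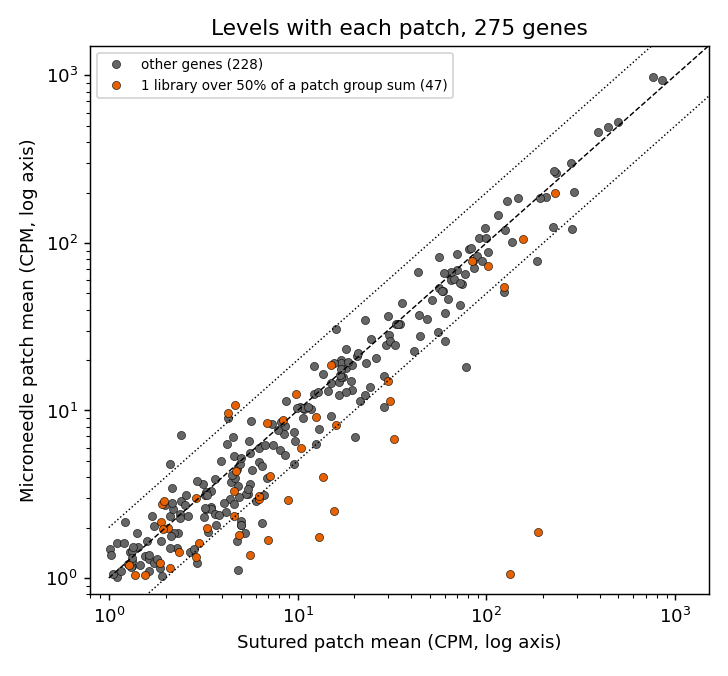
Each point is 1 of the 275 genes by its mean with the sutured and with the microneedle patch (CPM, both axes logarithmic); the dashed line marks equal levels and the dotted lines a 2-fold difference. The 47 genes in which 1 library held over 50% of a patch group's sum are orange, and 34 genes lie below the lower dotted line against 5 above the upper one.

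The smallest adjusted p of this comparison belonged to ENSRNOG00000012772, named after its values were seen. The sutured patch libraries stood at 43.6, 69.2, 213, 141, 133.5 and 142 CPM and the microneedle patch libraries at 75.5, 34.4, 46.6, 45.0, 49.9 and 56.2 CPM. Sutured patch replicate 1 lay within the microneedle range and replicate 2 just below its highest value, and the other 4 were above it. The log2 fold change was -1.19 (SE 0.29, edgeR adjusted p = 0.0631). It passed without sutured patch replicate 1 (adjusted p = 0.0326), without sutured patch replicate 2 (adjusted p = 0.0423), without Sham replicate 5 (adjusted p = 0.0310), without Sham replicates 4 and 5 (adjusted p = 0.0247) and with DESeq2 (adjusted p = 0.00617); over all alternatives the adjusted p ran from 0.00617 to 0.155. In MI the gene stood at 10.7 to 16.1 CPM and in Sham at 9.37 to 29.4 CPM, so all 12 patch libraries were above both.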

How the data were processed

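RNA sequencing of 24 libraries, 6 in each of 4 groups, was available as 1 table of raw read counts per Ensembl gene ID as deposited by the authors, with 1 column per library. HISAT2, featureCounts and the build rn6 appear in the submitters' processing notes. Versions, annotation, strand setting and how reads shared by near-identical genes were treated were not given in the sources used, so such genes are uncertain. Columns were matched to samples by the code in each title, with 0 unassigned and 0 rows without a gene.

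The members and lists were chosen with earlier results of these data known. Counts were tested with edgeR 4.0.16 in R 4.3.3 (filterByExpr with a minimum count of 10, TMM, robust quasi-likelihood F test, all 24 libraries in 1 fit with 4 group means, Benjamini-Hochberg adjustment over 14540 genes, threshold 0.05), and the test was checked on simulated data. SE is the absolute log2 fold change over the square root of F; 95% intervals use 20 residual degrees of freedom. DESeq2 1.42.0, other size factors, no filter, a replicate block, the compared groups alone and leaving out each library were alternatives. No library was a duplicate of another in its group, as the 60 pairs within groups differed with a chi-square of at least 14.6 for each degree of freedom. Pairs from different groups were not compared in this way. Since the IDs have no symbols, the rule for names printed the first 2 genes by patch level and the first gene in each direction of MI against Sham (the higher one was already printed); 1 more, with the smallest adjusted p between the patches, was chosen after its values were seen. Gene lists could not be applied.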

Additional observations from a re-analysis of the deposited data

Results flagged for a closer look

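In groups of 6, a library was singled out when its gap to the nearest other library exceeded the share of the group's range that Dixon's test allows at the 95% level; 34 such groups were looked at, chance alone singles out about 1 in 20, and 8 values were singled out. They all belong to genes described for the library concerned, so they are not independent of that choice. Sutured patch replicate 6 had 6676 CPM and microneedle patch replicate 2 had 5593 CPM for the sum of the 63 genes highest in these libraries. The same libraries had 782 CPM and 874 CPM for the 1 gene of that set described singly. Sutured patch replicate 5 had 1117 CPM and 795 CPM for the 2 genes found nearly in it alone, and microneedle patch replicate 3 had 10.5 CPM and 6.36 CPM for the same 2 genes. The cause was not tested.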

How the results depend on the processing

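The number of genes was 120 at 3 times and 638 at 1.5 times in place of 2 times, and between 239 and 307 when single libraries were left out; TMM-scaled CPM gave 274, 266 of them shared, and a minimum of 2 CPM gave 212. Genes without overlap numbered 79 to 96 without single libraries. Calls without single libraries ran from 115 to 136 for MI against Sham (129 in the full data), from 98 to 193 for the sutured patch and from 115 to 208 for the microneedle patch against MI, and from 248 to 256 and from 242 to 251 against Sham. For the microneedle against the sutured patch, 0 genes in the full data became 0 to 2 without single libraries, 4 without Sham replicates 4 and 5, 3 with DESeq2 and 1 with the replicate block; the cause was not tested. Outside the main fit, no share of all genes called was computed. Same-numbered libraries correlated over 0.1 in 19 of 36 pairs (range -0.137 to 0.436), and 9 of 24 libraries correlated best with their own number. What unlike numbers would give was not computed, so these values do not decide whether the numbers mark a pairing. The labels state no pairing, so none was used in the main fit. The replicate block changed no other count by more than 1.5 times. Sham depth limits the weakest genes, and few of them were found also in Sham replicate 4, which held 10753596 counts.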
